A study of Triticum aestivum with 12 samples.

Results

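The probe sets described here were picked from 12 Affymetrix wheat arrays as those whose signal was higher at low than at conventional phosphorus in roots of the winter wheat variety Xindong20, with little difference between the phosphorus levels in Xindong23. A probe set is a group of short probes designed to read a transcript or a few related ones, and its value is a log2 intensity. In Xindong20 the mean of the 3 low-phosphorus (LP) arrays had to exceed that of the 3 conventional-phosphorus (CP) arrays by at least 1.5 on the log2 scale, with the lowest LP array above the highest CP array. In Xindong23 the LP and CP means had to differ by less than 0.5. Probe sets of the histone H2A-9 gene were left out, 2 of which met these conditions. The conditions were met by 304 of the 61179 non-control probe sets, called members below.

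The 4 groups were Xindong20 at LP (phosphorus at 0.05 mmol/L), Xindong20 at CP (1 mmol/L), Xindong23 at LP and Xindong23 at CP, each with 3 arrays that the series design gives as biological replicates. All seedlings were raised in Hoagland solution at their phosphorus level for 14 days and then spent 7 days with 15% PEG-6000, a polymer that lowers the water available to roots, so the CP plants were under drought as well. Potassium chloride stood in for part of the potassium phosphate at LP. No plants without drought were analysed here, and the number of seedlings behind each array is not given in the sources used here. Arrays are written by level and replicate number, such as LP1.

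Roots short of phosphorus are known to turn on a set of transcripts that includes high-affinity phosphate transporters, secreted acid phosphatases and enzymes that replace membrane phospholipids with lipids lacking phosphorus. Transcription factors of the PHR family drive many of these genes, and SPX proteins hold the factors back while phosphate is plentiful. Varieties of a crop can differ in how strongly they make this response, which is the kind of difference that the comparison of the 2 varieties addresses. Whether the members belong to that response cannot be read from their names, since only 11 of the 304 had a gene in the platform annotation. The others are given by probe set ID, in which dots are written as _ here.

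Values that chose the members are given as a description. The Xindong20 difference, LP minus CP, had a median of 1.80 over the members, with the middle 50% between 1.60 and 2.13 and a highest value of 4.51, against a median of -0.05 over all probe sets. It was at least 2 in 97 members, at least 3 in 18 and at least 4 in 4. Its standard error (SE) had a median of 0.45. Of the 100 probe sets with the highest Xindong20 differences on the array, 24 were members. In Xindong23 the difference had a median of 0.02 and ran between -0.49 and 0.49, with 166 values above 0 and 138 below. In bulk roots, more cells of a type and more RNA per cell cannot be told apart.

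The highest Xindong20 difference belonged to Ta_2870_2_S1_at. Its levels were 8.76, 9.46 and 9.27 on the Xindong20 LP arrays, against 4.41, 4.80 and 4.77 on the CP arrays. In Xindong23 it had 4.95, 5.85 and 5.63 at LP and 5.44, 5.05 and 5.56 at CP. All 3 Xindong20 LP arrays therefore stood over 2 log2 units above each of the other 9 arrays, and the 2 Xindong23 groups overlapped. The Xindong20 means were 9.16 ± 0.37 for LP and 4.66 ± 0.22 for CP (SD, n = 3 each), a 22.7-fold difference.

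A second probe set of the same family, Ta_2870_1_S1_at, behaved alike. It had 9.62, 10.65 and 9.71 on the Xindong20 LP arrays, against 5.99, 6.73 and 5.63 at CP. Its Xindong23 levels were 5.74, 6.18 and 6.70 at LP and 6.05, 6.35 and 6.77 at CP. The Xindong20 CP arrays and both Xindong23 groups overlapped, and only the 3 Xindong20 LP arrays stood apart. Over the 12 arrays the 2 probe sets correlated at 0.969 (Pearson, a description, since they read related sequences on the same arrays).

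TaAffx_143995_3_S1_s_at was the brightest of the members with a difference above 3. Its Xindong20 levels were 10.80, 11.54 and 11.03 at LP, against 6.89, 7.78 and 7.18 at CP. The Xindong23 arrays had 7.32, 8.08 and 8.04 at LP and 7.63, 7.62 and 8.14 at CP, close to the Xindong20 CP arrays. Ta_28007_1_A1_at had a smaller difference with close replicates. It had 9.26, 9.41 and 9.53 on the Xindong20 LP arrays and 6.94, 6.88 and 6.98 at CP, and between 7.10 and 7.42 on all 6 Xindong23 arrays. Its Xindong20 difference was 2.47 (SE 0.12). The probe set was named after its values were seen, for its difference between the varieties in response. That was 2.56 (SE 0.17), with the smallest adjusted p of the members (0.000875, limma). The rule used both parts of that contrast, so nothing is read from this p.

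Other members were near the background of the array in every group but Xindong20 LP. The lowest array median, 4.24, is used here as the limit below which a level is dim and a difference against it is a lower bound, unless both levels are dim. TaAffx_53825_1_S1_at had 5.55, 5.88 and 7.60 at LP in Xindong20, against 2.68, 1.84 and 2.02 at CP, and between 1.96 and 2.25 on the 6 Xindong23 arrays. Ta_4122_1_A1_at had 5.08, 6.03 and 7.42 at LP in Xindong20, against 2.65, 2.41 and 2.69 at CP, with 2.14 to 2.74 in Xindong23. The Xindong20 LP mean of Ta_18925_1_A1_at was 7.11 ± 0.91, against 3.76 ± 0.26 at CP (SD, n = 3 each), and its 6 Xindong23 arrays had 3.36 to 3.55. In these 3 probe sets signal above the dim limit was found on the 3 Xindong20 LP arrays only, out of the 12 arrays. In all, 37 members (12.2%) were dim on average in Xindong20 CP and in both Xindong23 groups. The same held for 27924 of all 61179 probe sets, a higher share than of the members. It held for 55 of the 609 that met the Xindong20 conditions at any Xindong23 difference, a set that includes the members.

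In other members Xindong23 stood at the height that Xindong20 reached at LP. Ta_25839_1_A1_a_at had 6.32, 6.89 and 7.79 on the Xindong20 LP arrays and 3.03, 2.15 and 2.82 on the Xindong20 CP arrays. In Xindong23 it had 7.73, 6.62 and 7.59 at LP and 7.22, 7.34 and 7.25 at CP. The Xindong20 CP arrays were thus the only low ones of the 12. Ta_8969_2_S1_at, Ta_638_1_S1_at and Ta_12764_1_A1_at were of this form too, with Xindong20 CP means of 4.78, 2.98 and 4.64 against Xindong23 CP means of 8.27, 6.24 and 7.93. Outside the members, Ta_8969_1_S1_a_at and Ta_8969_1_S1_x_at shared the Ta_8969 stem but not the form. Their Xindong20 CP means were 8.25 and 7.64, and their Xindong20 differences 0.37 and 0.32.

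**Figure D1:**
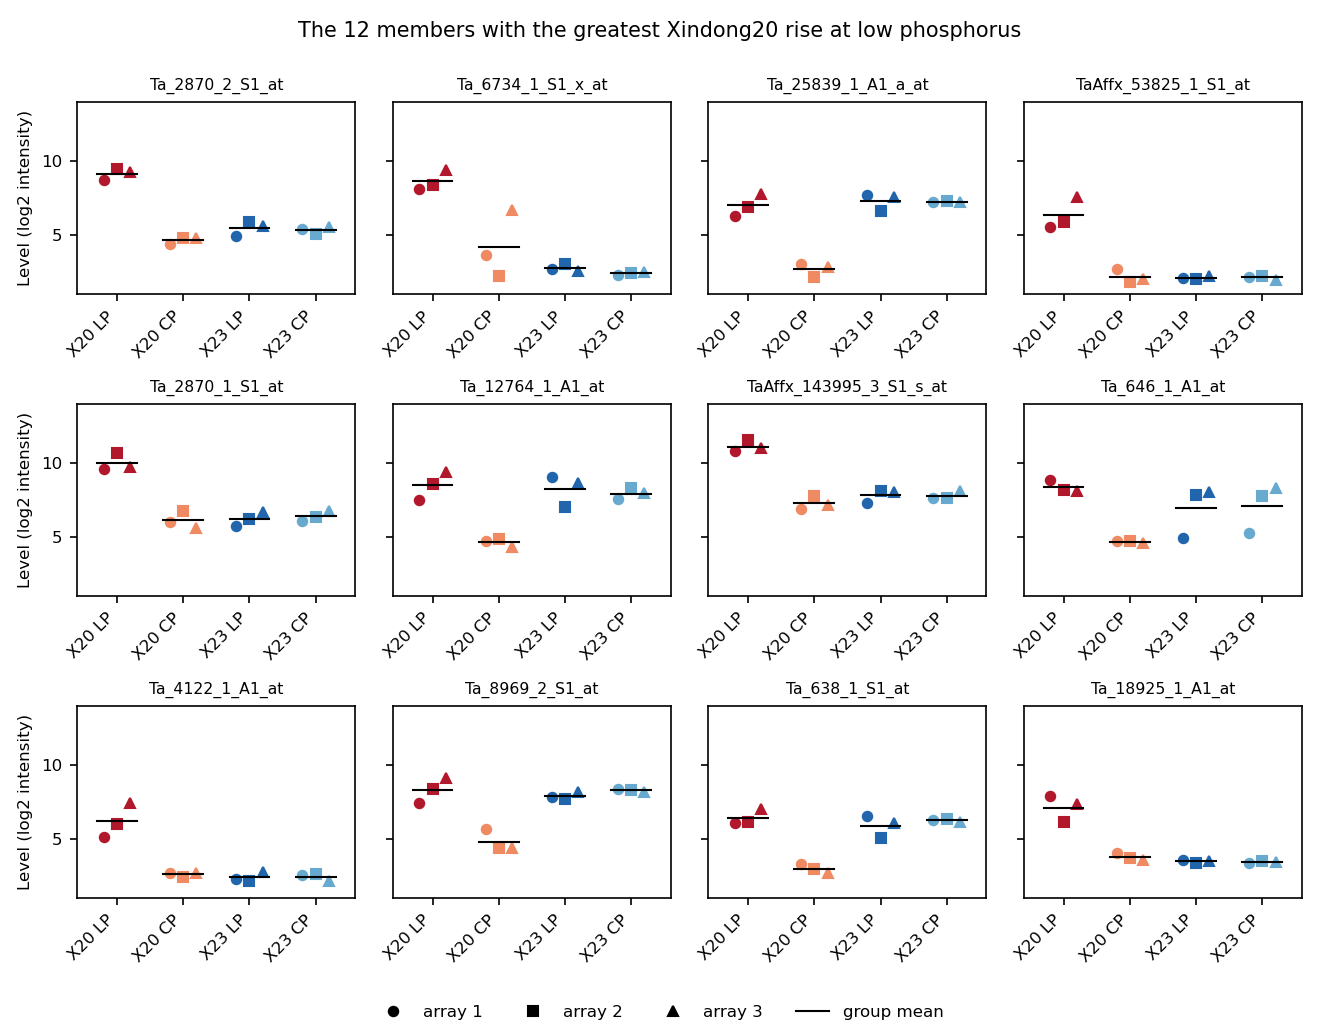
Log2 intensity (y axis) of the 12 members with the highest Xindong20 difference, on each of the 3 arrays of the groups X20 LP, X20 CP, X23 LP and X23 CP (X20 is Xindong20, X23 is Xindong23), with marker shape for the array number and a bar for the group mean. The X20 LP points lie above the X20 CP points in all 12 panels, as the rule required, while the X23 points lie at the X20 CP level in some panels (Ta_2870_1_S1_at) and at the X20 LP level in others (Ta_25839_1_A1_a_at).

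Replicates disagreed most in 2 of these 12 probe sets. Ta_6734_1_S1_x_at had 8.15, 8.38 and 9.37 at LP in Xindong20, but 3.65, 2.23 and 6.69 at CP, a spread of over 4 between replicates. Its difference of at least 4.45 (SE 0.86) passed limma's test (adjusted p = 0.0374). It still passed without Xindong20 CP3, Xindong23 LP1 or Xindong23 LP3, and without each of the other 9 arrays the adjusted p lay between 0.0542 and 0.134. The other member of that family, Ta_6734_1_S1_s_at, had a difference of 1.96 (SE 0.25). Outside the members, Ta_6734_1_S1_a_at had 3.58 in Xindong20 and 0.54 in Xindong23, and Ta_6734_2_S1_x_at had 0.47 in Xindong20, with all 4 of its group means dim. Ta_646_1_A1_at had 8.88, 8.16 and 8.08 at LP in Xindong20, against 4.73, 4.72 and 4.60 at CP. In Xindong23, however, it had 4.95, 7.84 and 8.04 at LP and 5.24, 7.78 and 8.29 at CP, with the arrays numbered 1 low in both groups, and its Xindong20 difference of 3.69 (SE 0.88) did not pass (adjusted p = 0.064).

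Of the 304 members, 123 passed the limma test of Xindong20 LP against CP at an adjusted p under 0.05, while 0.976% of all probe sets passed with LP higher. The rule used this contrast, so nothing is read from the count. It fell to between 41 and 74 when any of the 6 CP arrays was left out. The variety by phosphorus interaction was positive and passed in 20 members, against 0.113% of all probe sets, again fixed in sign by the rule. Leaving out Xindong20 LP1 or LP3 kept that count within 1.5 times, while each of the other 10 arrays brought it to between 2 and 12. The Xindong23 contrast was bounded by the rule as well, so its low counts restate the choice of members. No member passed for Xindong23 LP against CP, where 0.00654% of all probe sets did, and 3 members had an unadjusted p under 0.05 (5.79% of all probe sets).

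A small Xindong23 difference is a weak bound when replicates spread. The 95% interval of that difference reached a median of 0.999 either side of the estimate, against 0.479 over all probe sets. It lay within -1 to 1 in only 84 members (27.6%), against 44830 of all 61179 probe sets. In 68 members (22.4%) the interval reached above 1.5, the size required in Xindong20, against 4395 of all 61179. The LP arrays of Xindong23 lay wholly above the CP arrays in 7 members and wholly below in 9, where 6.6% and 7.51% of all probe sets did so.

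Members just inside and outside the thresholds had nearly equal values. Ta_3713_1_S1_at, Ta_10696_1_A1_at and Ta_4977_1_A1_at entered with Xindong20 differences of 1.501, 1.502 and 1.502, and Ta_1823_1_A1_at, TaAffx_104989_1_S1_at and Ta_22012_1_S1_at stayed out with 1.499, 1.499 and 1.496. For Xindong23, Ta_18647_1_S1_s_at (-0.49), Ta_1848_1_S1_s_at (0.49) and TaAffx_54121_1_S1_at (-0.49) were inside, and TaAffx_6514_1_S1_at (-0.51), Ta_6128_1_S1_at (-0.51) and Ta_23081_1_S1_x_at (0.52) outside. For the gap between the lowest LP and the highest CP array, Ta_22166_1_A1_at, Ta_14251_1_S1_at and Ta_21356_1_S1_at were inside with 0.01, 0.02 and 0.02. Ta_11720_1_A1_at, Ta_3184_1_S1_at and Ta_13607_1_A1_at were outside with gaps of -0.01, -0.01 and -0.02.

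The rule set no condition on the position of Xindong23 relative to Xindong20. That position was tested as the average difference between the varieties, that is the mean of the Xindong20 LP and CP group means minus that of Xindong23. In the fit, which takes 1 spread for all groups of a probe set, this contrast is uncorrelated with both LP minus CP differences. The members spread more at LP than at CP in Xindong20 (median SD 0.718 and 0.334), so it is not wholly free of the choice of members, and its counts are read with that limit. For members, whose Xindong23 means were close together, it is near 0 when the Xindong23 level lies midway between the Xindong20 LP and CP levels. It is above 0 when Xindong23 lies nearer the Xindong20 CP level and below 0 when it lies nearer the LP level. The median over the members was -0.09 (0.03 over all probe sets), with 137 values above 0 and 167 below and a range of -2.46 to 4.03.

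This average difference passed in 48 of 304 members (15.8%), against 1.82% of all probe sets and 11.5% of the 609 probe sets that met the Xindong20 conditions at any Xindong23 difference. It was higher in Xindong20 in 28 members and lower in 20, against 0.853% and 0.964% of all probe sets. The size was at least 1 in 40 of the 48. At an unadjusted p under 0.05 there were 114, against 11.6% of all probe sets. The count of lower members was 12 without Xindong20 CP2 or CP3, 13 without Xindong20 LP2, between 11 and 13 without any of the Xindong23 CP arrays, 13 without Xindong23 LP3 and 33 without Xindong23 LP1, while that of higher members stayed within 1.5 times without any array.

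In the 28 members that were higher in Xindong20, the median level was 7.12 for the Xindong20 LP group and 4.68 for Xindong20 CP, and 3.65 for Xindong23 LP and 3.50 for Xindong23 CP. Both Xindong23 means were dim in 18 of them. The 3 Xindong20 LP arrays lay above the 3 Xindong23 LP arrays in all 28, and the CP arrays were likewise ordered in 12. In the 20 lower members the medians were 7.36 at LP and 4.92 at CP in Xindong20, against 7.72 at LP and 7.62 at CP in Xindong23. All 20 had the Xindong20 CP arrays below those of Xindong23, while the LP arrays of the 2 varieties overlapped in 16 and lay lower in Xindong20 in 3. Over all probe sets Xindong20 lay above at LP in 4.07% and at CP in 21.7%. It lay below at CP in 17.6% and at LP in 5.42%. The rule required a rise in Xindong20 with little change in Xindong23. With the call, this makes the LP order likely in the higher members and the CP order in the lower. Both orders are therefore descriptions.

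TaAffx_72199_2_S1_at had the highest average difference. It had 7.43, 6.97 and 6.85 at LP and 5.58, 4.75 and 4.53 at CP in Xindong20, while the Xindong23 arrays ran between 1.72 and 2.16 in both groups. Xindong23 was dim throughout and the Xindong20 arrays were above the dim limit at both phosphorus levels. The average difference was at least 4.03 (SE 0.18), with an adjusted p of 9.94e-07 (limma). It was 3.83 (SE 0.61) for Ta_6734_1_S1_x_at and 3.45 (SE 0.60) for Ta_20949_1_A1_at, both also lower bounds. Outside the members, TaAffx_72199_1_A1_at had an average difference of -0.33, with all its group means dim, and Ta_6734_1_S1_a_at had at least 3.05.

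Ta_20949_1_A1_at had 6.26, 6.26 and 7.47 on the Xindong20 LP arrays, 6.02, 2.11 and 5.97 on the CP arrays, and 2.15 to 2.42 in Xindong23. Xindong20 CP2 was thus the only Xindong20 array at the Xindong23 level. The adjusted p of its average difference was 0.016, and 0.0543 without Xindong23 CP2. Ta_8722_1_S1_at had 8.62, 8.51 and 6.77 at LP and 5.64, 6.13 and 5.60 at CP in Xindong20, against 3.12 to 4.19 in Xindong23, with an average difference of at least 3.32 (SE 0.33). Ta_15228_1_S1_at and Ta_30948_1_S1_at followed with at least 2.40 and 2.30. Outside the members, Ta_30948_2_S1_at and Ta_30948_3_S1_at had 0.35 and -0.04, with all their group means dim. In 9 members, 0.829% of all probe sets being the background, all 6 Xindong20 arrays lay above all 6 of Xindong23.

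At the other end stood Ta_25839_1_A1_a_at, with an average difference of -2.46 (SE 0.28, adjusted p = 0.000921). TaAffx_12065_1_S1_at had 6.75, 7.49 and 7.66 at LP and 4.71, 4.20 and 3.84 at CP in Xindong20, against 7.54 to 7.88 on the 6 Xindong23 arrays. Its LP arrays came close to the Xindong23 level and its CP arrays lay over 2 below it (average -1.93, SE 0.18, adjusted p = 0.000216). Ta_27564_1_S1_at had 5.39, 6.04 and 6.41 at LP and 4.01, 4.56 and 4.62 at CP in Xindong20, against 6.82 to 7.58 in Xindong23. It was the only member with all 6 Xindong20 arrays below all 6 of Xindong23, as were 0.664% of all probe sets. Ta_25973_1_A1_at, Ta_30583_1_S1_at and TaAffx_37298_1_A1_at had averages of -2.22, -2.07 and -2.02. Outside the members, TaAffx_37298_1_A1_x_at had -1.30.

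**Figure D2:**
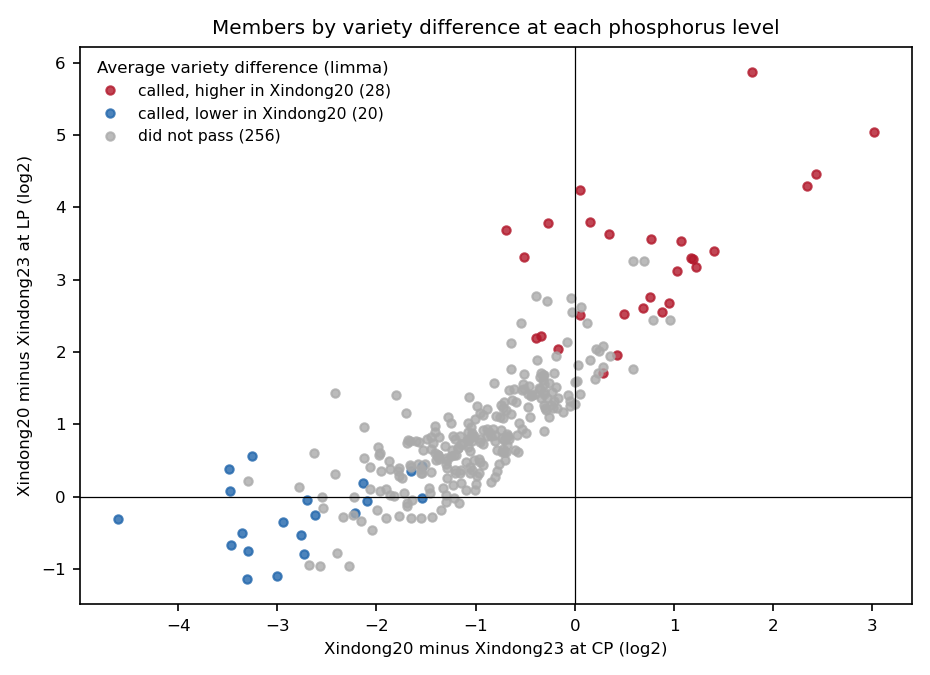
Each point is 1 of the 304 members, placed by the difference Xindong20 minus Xindong23 at CP (x axis, log2) and at LP (y axis, log2), with red for the 28 members whose average difference was higher in Xindong20, blue for the 20 that were lower and grey for the rest. The points run along a band above the diagonal because the rule fixes a rise in Xindong20 and little change in Xindong23, and the red and blue points lie at the ends of that band.

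The full set was spread between these ends. At CP the Xindong20 mean was below the Xindong23 mean in 263 of 304 members, with a median difference of -0.97, and at LP it was above in 267, with a median of 0.81. All 3 Xindong20 CP arrays lay below all 3 Xindong23 CP arrays in 187 members (61.5%), where 17.6% of all probe sets did so, and above in 15, against 21.7%. At LP all 3 Xindong20 arrays lay above those of Xindong23 in 110 members (36.2%), where 4.07% did so, and below in 3, against 5.42%. Of the 609 probe sets that met the Xindong20 conditions at any Xindong23 difference, 305 (50.1%) lay below at CP, 187 of them members. At LP 170 (27.9%) lay above, 110 of them members. The 609 include all 304 members, so these shares are no separate comparison. Tested at 1 phosphorus level at a time with limma, 44 members were lower in Xindong20 at CP (1.46% of all probe sets) and 50 higher at LP (0.57%). The arrays of these comparisons also chose the members, so these are descriptions. The most frequent pattern was a Xindong20 level below Xindong23 at CP with overlap at LP, in 155 members (51.0%). Overlap at CP with Xindong20 above at LP was found in 66, overlap at both levels in 36 and Xindong20 below at CP and above at LP in 29. In 15 Xindong20 was above at both levels, and in 3 below at both.

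Replicate spread was higher for the members than for all probe sets, without a test. The median SD was 0.718 at LP and 0.334 at CP in Xindong20, and 0.661 at LP and 0.252 at CP in Xindong23, against 0.335, 0.181, 0.262 and 0.133 over all probe sets in the same order of groups. It was 0.757, 0.355, 0.871 and 0.305 in the 609 that met the Xindong20 conditions at any Xindong23 difference, members included. The higher spread was thus not particular to the members. In 106 members (34.9%) the Xindong23 LP1 array lay more than 1 below both LP2 and LP3, which was the case in 3.26% of all probe sets and in 39.2% of these 609. LP1 lay that far above both in 9 members.

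For these 106 members the Xindong23 mean at LP was an average of unlike arrays. Their mean level in Xindong20 was 7.63, 6.45 and 7.15 on LP1, LP2 and LP3, against 5.20, 5.10 and 5.13 on CP1, CP2 and CP3. In Xindong23 it was 5.03, 7.38 and 7.35 at LP, against 6.07, 6.49 and 7.02 at CP. Relative to the Xindong23 CP mean, LP1 had a median of -1.49 and the mean of LP2 and LP3 a median of 0.86, so the arrays stood on opposite sides of CP. Xindong20 LP1 was the highest LP array in 63 of the 106 and lay above LP2 in 90. The same held in 1295 and 1828 of all 1995 probe sets with such a low Xindong23 LP1, so this order was not particular to the members. None of the 106 passed the test of the average variety difference. The low LP1 array enters the spread used in that test, so nothing is read from this.

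Ta_8962_1_S1_at had the widest such gap. It had 8.34, 6.32 and 6.50 at LP in Xindong20, against 4.70, 4.87 and 3.50 at CP. In Xindong23 the levels were 3.57, 7.86 and 7.51 at LP, against 5.05, 6.10 and 7.00 at CP. The mean Xindong23 difference was 0.26, with a 95% interval of -2.07 to 2.59, and all 3 Xindong23 LP arrays lay over 1 from their mean. Without Xindong23 LP1, 246 probe sets met the rule and 192 of them were members. The cause of the separation of Xindong23 LP1 was not tested, and the labels give no batch to set beside it.

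**Figure D3:**
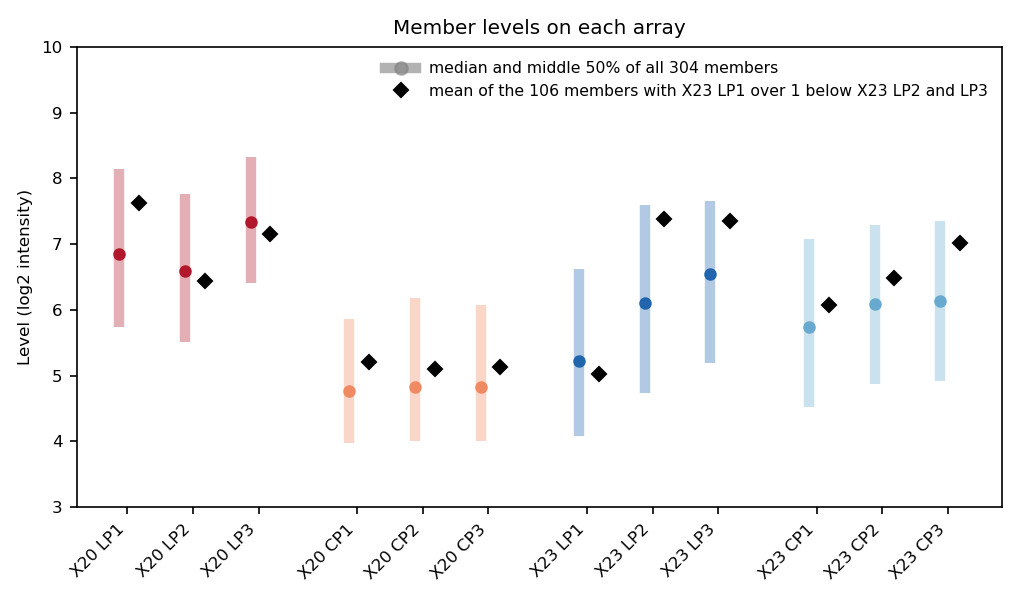
Log2 intensity (y axis) of the members on each of the 12 arrays (x axis), with circles for the median, bars for the middle 50% of all 304 members, and diamonds for the mean of the 106 members whose Xindong23 LP1 array lay over 1 below LP2 and LP3. The diamonds reach 7.38 on Xindong23 LP2 and 5.03 on Xindong23 LP1, while the 3 Xindong20 CP arrays hold them between 5.10 and 5.20.

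**Figure D4:**
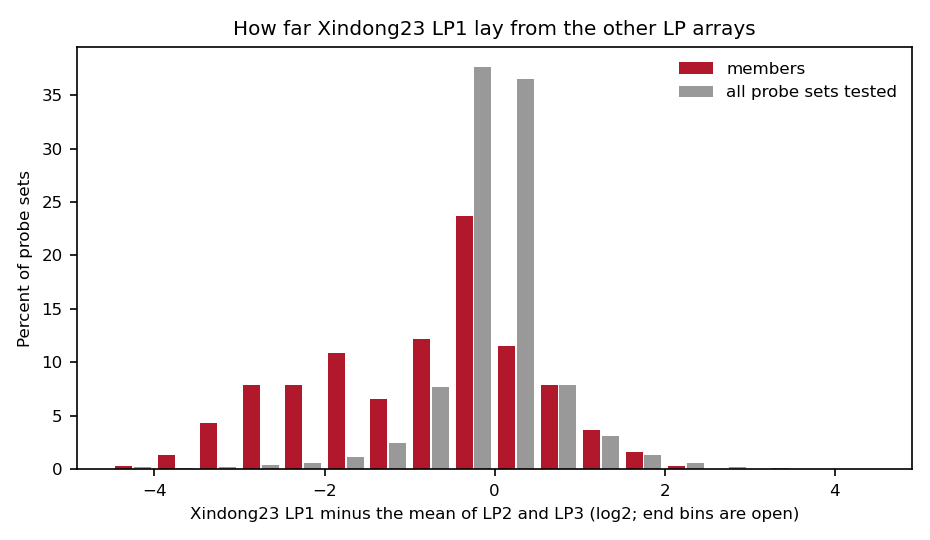
Percent (y axis, from 0) of the 304 members (red) and of all 61179 probe sets (grey) by the Xindong23 LP1 level minus the mean of LP2 and LP3 (x axis, log2, in bins of 0.5). The members have a broad shoulder below -1, where 10.9% of members and 1.15% of all probe sets fall between -2 and -1.5.

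The LP3 arrays differed from the others in a sign of RNA quality. The control probe sets for ubiquitin read both ends of its transcript, and the 3' end exceeded the 5' end by 2.84 (log2) on Xindong20 LP3 and by 1.16 on Xindong23 LP3, against -0.88 to -0.19 on the other 10. Xindong20 LP3 was the highest of its LP arrays in 168 members (55.3%), close to the 55.9% of all probe sets, and it lay more than 1 above both others in 68 (22.4%), against 7.41%. LP1 lay that far above the others in 34 members (11.2%, against 2.12%), and LP2 in 4 (1.32%, against 2.34%). The rule used these arrays and asked for a high LP mean, so nothing about RNA quality is read from these shares. The mean of Xindong20 LP1 and LP2 alone was at least 1.5 above the CP mean in 191 members and at least 1 above in 299, with a lowest value of 0.95. Without both LP3 arrays 367 probe sets met the rule and 150 of them were members. The 110 members with Xindong20 above Xindong23 on all LP arrays became 154 (50.7%) then. Over all probe sets that share went from 4.07% to 13.4%, since fewer arrays meet this order more easily.

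Xindong20 LP3 lay more than 1 below both other LP arrays in 6 members (1.97%, against 8.93% of all probe sets). The rule kept the lowest LP array above the CP arrays, so nothing is read from this lower share. The 3 members with the widest gap of LP3 above the mean of LP1 and LP2 are given first. Ta_16912_1_S1_at had 5.46, 5.55 and 8.11 at LP in Xindong20, against 3.75, 4.31 and 4.61 at CP. TaAffx_78176_1_S1_s_at had 3.50, 4.12 and 6.40 against 2.54, 2.91 and 2.08, and Ta_3830_2_S1_at had 4.92, 4.62 and 7.32 against 3.33, 4.01 and 3.14. In these 3 the LP3 array carried most of the difference. The 3 with the widest gap below included TaAffx_113857_2_S1_s_at, with 4.15, 5.60 and 2.87 at LP against 2.51, 2.64 and 2.37 at CP, and Ta_1827_3_A1_a_at, with 9.43, 8.98 and 7.21 against 6.85, 6.68 and 7.17. The last of them, Ta_22166_1_A1_at, had 7.19, 3.89 and 3.65 against 3.38, 2.70 and 3.64, so that its LP1 array carried most of the difference. None of these 6 passed the Xindong20 test (adjusted p between 0.0893 and 0.479).

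The poly-A spikes, transcripts added to each RNA sample before labelling, also differed with phosphorus. Their mean over 36 probe sets was 5.11 ± 0.89 at LP and 6.99 ± 0.39 at CP (SD, n = 6 each), and 3.80 on Xindong20 LP3. The difference of -1.88 had an exact two-sided permutation p of 0.00216. With this spike mean as a covariate in the model, 2 of the 304 members passed the Xindong20 contrast. For the 12 highest members the Xindong20 differences were 2.27 to 4.12 with the covariate, against 3.35 to 4.51 without it. Ta_2870_2_S1_at had 4.12 (adjusted p = 0.0437), Ta_2870_1_S1_at 3.73 (adjusted p = 0.0695) and TaAffx_143995_3_S1_s_at 3.56 (adjusted p = 0.0629). The spike level and the phosphorus level run together on these arrays, so their parts in the 2-group difference cannot be told apart.

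A stricter reading asks each array to meet the pattern, a count made after the values were seen. Each of the 3 Xindong20 LP arrays lay at least 1.5 above the CP mean in 85 members, each of the 3 Xindong23 LP arrays lay within 0.5 of the CP mean in 59, and both held in 23. Over all 61179 probe sets these conditions were met by 210, 34152 and 24, so the Xindong23 condition was met by a lower share of the members than of all probe sets. Among these 23 were TaAffx_53825_1_S1_at, TaAffx_143995_3_S1_s_at, Ta_4122_1_A1_at, Ta_18925_1_A1_at, TaAffx_12065_1_S1_at, TaAffx_72199_2_S1_at and Ta_28007_1_A1_at, described above. In 19 of the 23 the Xindong20 LP arrays lay above those of Xindong23, and 9 were dim in Xindong20 CP and both Xindong23 groups. The average variety difference was higher in Xindong20 in 12 and lower in 2. These 23 were chosen on the same arrays, and nothing is read from their counts. Ta_2870_2_S1_at missed this count because its Xindong23 LP arrays ran between 4.95 and 5.85.

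Of the 5 brightest members at LP in Xindong20, TaAffx_143995_3_S1_s_at is described above and was also among the 12 with the highest difference. Ta_1968_1_S1_at had 12.48, 12.34 and 11.55 at LP in Xindong20, against 11.36, 9.67 and 10.61 at CP, with 11.62 to 12.77 in Xindong23. Ta_18647_1_S1_s_at had 12.24, 11.64 and 10.74 at LP against 9.89, 8.53 and 8.93 at CP, and 9.64 on Xindong23 LP1, against 11.76 to 12.77 on the other Xindong23 arrays. Apart from that array, Xindong23 lay near or above the Xindong20 LP level in both. Ta_23362_1_S1_x_at had 11.19, 11.15 and 11.33 at LP against 9.18, 9.37 and 9.15 at CP in Xindong20, a difference of 1.99 (SE 0.17). Its Xindong23 values were 10.30, 9.88 and 9.70 at LP and 9.75, 9.56 and 9.33 at CP, and the 95% interval of that difference, 0.03 to 0.79, excluded 0. Ta_6663_1_S1_s_at had 10.70, 10.86 and 10.94 at LP against 9.20, 9.34 and 9.07 at CP in Xindong20.

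Probe sets share transcripts, so members are not independent. The 304 members fell into 285 families with a common ID stem, 19 of them with 2 members, and the paired members correlated between 0.678 and 0.997 over the 12 arrays. A further 177 probe sets shared a Ta stem with members without meeting the rule. Their Xindong20 difference had a median of 0.67 and was above 0 in 145, and 23 reached 1.5. Members with the TaAffx prefix made up 17.4%, against 48.5% of all probe sets. IDs ending in _s_at, which mark probes shared by several transcripts, made up 7.24% against 4.31%, and their values may mix related copies. Bread wheat carries several near-identical copies of most genes, which such an array cannot always separate.

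The platform annotation paired 11 members (3.62%, against 2.08% of all probe sets) with 10 genes, all found in RefSeq by Entrez ID and all with a locus symbol in place of a descriptive name. None of the 11 passed the Xindong20 test, with adjusted p between 0.0595 and 0.344, and none the test of the average variety difference. Xindong23 LP1 lay over 1 below both LP2 and LP3 in 9 of the 11. Xindong20 LP1 was the highest LP array in 8, against 30.9% of members and 18.2% of all probe sets. Xindong23 LP1 was the lowest in 10, against 60.5% and 31.1%.

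LOC543313 (Ta_5385_1_S1_at) had the highest difference of the annotated genes. It had 9.90, 7.94 and 8.69 at LP in Xindong20, against 5.38, 6.88 and 5.18 at CP, a difference of 3.03 (SE 0.80, adjusted p = 0.0818, limma). In Xindong23 it had 5.63, 8.19 and 8.47 at LP and 6.87, 7.63 and 8.36 at CP. Only LP1 was low among the Xindong23 LP arrays, and 2 of the 3 Xindong20 LP values were above every Xindong23 array.

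LOC100037609 was read by 2 members with the same profile. Ta_1848_1_S1_s_at had 10.30, 8.85 and 9.09 at LP in Xindong20, against 7.33, 7.92 and 6.49 at CP. In Xindong23 it had 6.36, 10.17 and 8.92 at LP, against 7.39 to 8.58 at CP, so the Xindong23 LP arrays alone ranged over nearly 4 units. The second member, Ta_1848_2_S1_s_at, had differences of 2.34 in Xindong20 and 0.48 in Xindong23, and another probe set of the gene, outside the members, had 1.74 and 0.29.

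The smallest adjusted p of the annotated members was that of LOC543452 (Ta_8605_1_A1_at). It had 6.16, 6.23 and 7.91 at LP in Xindong20, against 4.91, 4.70 and 5.17 at CP, with 5.69 to 6.63 on the Xindong23 arrays. The difference was 1.84 (SE 0.42, adjusted p = 0.0595). LOC543436 (Ta_24746_1_S1_x_at) had the widest spread, with 11.19, 8.29 and 8.06 at LP in Xindong20 against 7.05, 7.57 and 6.48 at CP, and 7.68 to 11.39 in Xindong23.

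The remaining annotated members had Xindong20 differences of 1.59 to 1.98. They were LOC100037531 (Ta_1082_3_S1_at, 1.75), LOC543369 (Ta_18648_1_S1_at, 1.92), LOC780642 (Ta_26215_1_S1_at, 1.93), LOC778400 (Ta_26928_1_S1_a_at, 1.65), LOC543071 (Ta_4878_1_S1_at, 1.98) and LOC543399 (Ta_5174_1_S1_at, 1.59). Probe sets of the same gene did not always go together. A second probe set of LOC543369 had 0.48 in Xindong20, and a second of LOC543399 had -1.37, the opposite sign to the member.

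**Figure D5:**
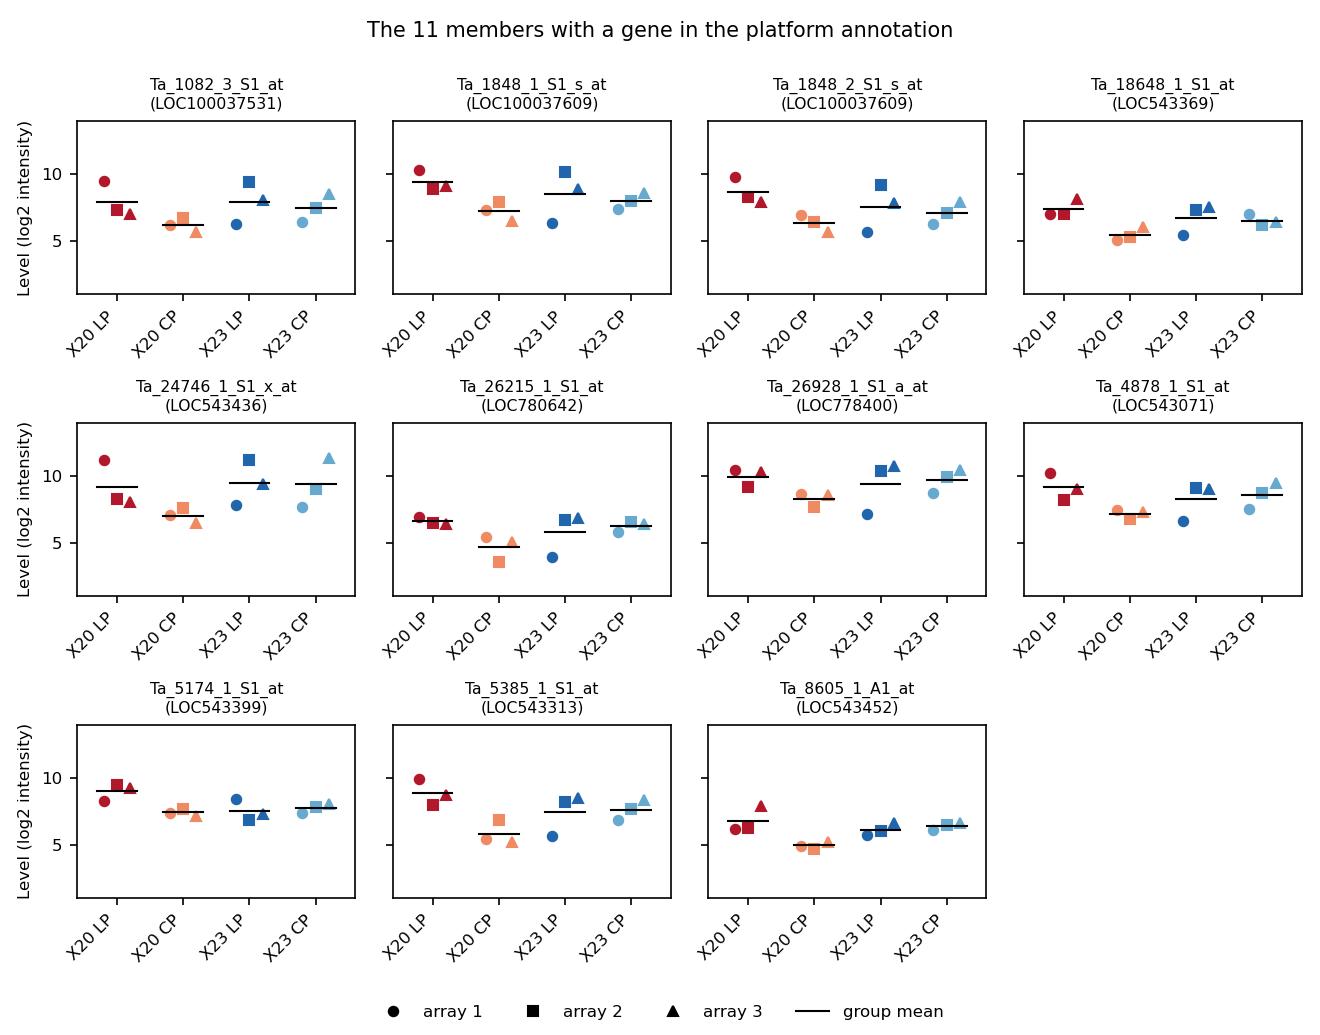
Log2 intensity (y axis) of the 11 members with a gene in the platform annotation on each of the 3 arrays of the groups X20 LP, X20 CP, X23 LP and X23 CP, with marker shape for the array number and a bar for the group mean. In 9 of the 11 panels the circle of X23 LP (array 1) lies over 1 below the square and the triangle of that group.

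Members fell into none of the 8 gene lists used. Only 11 members were annotated, and the rule had left out 2 H2A-9 probe sets that met its conditions, so nothing is read from this. The lists together held 30 genes on 80 annotated probe sets, and the phosphate starvation list had 0 probe sets on the annotated part of the array. The median Xindong20 difference was -0.09 over 7 probe sets of dehydrins and LEA proteins, 0.87 over 19 of histones and cell cycle genes, -0.25 over 6 of defence genes and -0.08 over 31 of photosynthesis genes. It was -0.44 over 6 of grain storage proteins, 0.19 over 3 of cytosolic ribosomal proteins and -0.34 over 8 of peroxidases and catalases. Of these 80 probe sets 1, a peroxidase or catalase, passed the Xindong20 contrast. As tissue markers, 3 probe sets of DMAS1, which makes the iron-binding compound that grass roots secrete, averaged 7.44, photosynthesis probe sets had a median level of 2.31 and a highest of 9.64, and the highest grain storage level was 4.40. The root genes for nicotianamine synthase, PHT1 and NRT2 had 0 annotated probe sets, so no level of a phosphate transporter is given here.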

How the data were processed

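RNA abundance was measured in roots on 12 arrays. The authors deposited 1 table of normalized values, treated here as log2 intensities, since the log base is not given in the sources used here. Per the submitters' processing notes, Affymetrix Expression Console 1.4.1 and RMA (background correction, a common distribution for all arrays, and a summary per probe set) were used, without order, so a shift shared by most transcripts would have been removed. The array medians ranged over 4.24 to 4.33, any 2 arrays correlated at 0.899 to 0.992, and no 2 were identical. Arrays have no read depth, and their number limits the precision.

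Of 61290 probe sets, 111 controls did not enter the tests. A linear model with 1 mean per group over 12 arrays was fitted with limma 3.58.1 in R 4.3.3 (8 residual degrees of freedom, prior 2.28), without a filter, and tested on simulated data. The 6 contrasts were two-sided, with Benjamini-Hochberg adjustment over 61179 probe sets, and a call needed an adjusted p under 0.05. "Rose", "higher in" and "lower in" refer to these calls, and all other differences are given as values. The limma p-values set each difference against the spread between arrays of the same group. Levels are mean ± SD of 3 arrays unless stated.

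The members, gene lists and tests were chosen with earlier results of these data known. Named were the annotated members, the 12 highest Xindong20 differences, the 6 highest and 6 lowest called average variety differences, 3 probe sets on each side of each threshold, the 5 brightest at LP in Xindong20, and the 3 largest gaps of Xindong20 LP3 in each direction. Families with 3 or more members were to be named, and there were none. Ta_28007_1_A1_at, Ta_8962_1_S1_at and the members that met the pattern on each array were chosen after their values were seen, as were partners of named probe sets. Replicate numbers were not used to pair the samples in the main model (6 of 18 correlations of deviations over 0.1). Alternatives covered normalization, low signal, left-out arrays, variance models, a replicate block, a spike covariate and the thresholds. Leaving arrays out of the count of members with all Xindong20 LP arrays higher was added after seeing the data. Gene names come from the platform annotation and RefSeq (IWGSC CS RefSeq v2.1, names only). No sequence or position is given.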

Additional observations from a re-analysis of the deposited data

Results flagged for a closer look

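The control probe sets held a signal outside the tested measurement. Ubiquitin probes at the 3' end of the transcript exceeded those at the 5' end by 2.84 (log2) on the Xindong20 LP3 array and by 1.16 on the Xindong23 LP3 array, above the highest value on the CP arrays, -0.19. Counts by the rule with and without these arrays are given above. Without both LP3 arrays, 161 members passed the Xindong20 contrast, against 123 with them. The average variety difference was then higher in Xindong20 in 34 members and lower in 25, against 28 and 20.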

How the results depend on the processing

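Membership depended on the thresholds. The rule gave 1130 probe sets at a Xindong20 difference of at least 1, 97 at 2, 173 at a Xindong23 difference under 0.25 and 466 under 1, and 246 to 574 with 1 array left out (480 and 574 without Xindong20 LP1 and LP2). Without the ordering of arrays it gave 389, and after quantile normalization 283, of which 261 were members.

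The average variety difference was higher in Xindong20 in 28 members. That count was 46 with array weights and 21 to 33 with 1 array left out. Lower were 20, with 36 under array weights, 31 under the spike covariate, 11 at a Xindong20 difference of at least 2, and 11 to 33 with 1 array left out. The median, -0.09, ran between -0.24 and -0.003 with 1 array left out and was 0.05 at a Xindong20 difference of at least 2. The 123 members called in Xindong20 became 283 under array weights, 2 under the spike covariate, 55 at a difference of at least 2, and 41 to 174 with 1 array left out. The 20 interaction calls became 57 without both LP3 arrays, 5 with a trended variance, 152 under array weights, 34 under the spike covariate and 2 to 28 with 1 array left out. The cause of these shifts was not tested. The count with all Xindong20 LP arrays above those of Xindong23, 110, became 123 without Xindong23 LP1.

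Replicate numbers are shared between groups. Deviations of arrays with the same number correlated between -0.29 and 0.76, and in 6 of 18 comparisons an array matched its own number best. Between LP and CP of Xindong20 the correlations were 0.19, 0.28 and 0.07 for arrays 1, 2 and 3, each the best match. In Xindong23 they were 0.35, -0.16 and 0.19, the best match for arrays 1 and 3. The LP3 arrays of the 2 varieties correlated at 0.76. The labels do not say whether the numbers pair the samples. With the replicate block the interaction was called in 3 members, the Xindong20 contrast in 127, and the average variety difference in 27 higher and 15 lower.

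Among named members, the average variety difference kept its sign and side of the threshold in 236 alternative values and crossed it in 1 (Ta_20949_1_A1_at, 3.42, adjusted p = 0.0543 without Xindong23 CP2). Of the Xindong20 differences, 22 lost the call, 10 of them under the spike covariate, and 2 gained it. Of the members, 96 were dim at CP in Xindong20, which leaves a lower bound on the difference, and 8 of these were dim at LP too, which leaves no size.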
